A study of Homo sapiens with 14 samples.

Results

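MYC, its dimer partner MAX and the genes that compete for MAX or for its relative MLX were examined as one network of 10 genes in human A549 cells. The members were taken by gene name from the deposited count table: MYC, MAX, MXD1, MXD3, MXD4, MXI1, MNT, MLX, MLXIP and MGA. All 10 were found among the 58780 genes of the table, and all 10 were among the 21910 genes with enough counts to be tested. The assay was PRO-seq (precision run-on sequencing), in which engaged RNA polymerases add labelled nucleotides to nascent RNA in permeabilized cells, so the signal reports polymerase activity and not the amount of mature mRNA.

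A549 is an established line of lung adenocarcinoma cells. The 14 libraries formed 7 groups of 2, and cells of every group were in 0.01% DMSO. One group was untreated and carries a 15 min label. The others received 1 µM GSK591, an inhibitor of the arginine methyltransferase PRMT5, or 1 µM MS023, an inhibitor of the type I arginine methyltransferases. Each inhibitor was given alone for 15 min, alone for 3 h, or together with 100 nM dexamethasone (Dex), a synthetic glucocorticoid, for 15 min. Dex without an inhibitor and untreated cells at 3 h are not analysed here, so a Dex effect is one measured in the presence of an inhibitor, and at 3 h the inhibitor and the longer culture cannot be told apart from the untreated comparison. The labels do not say whether replicates were separate cultures, so p-values measure only the spread between these libraries, which may be technical.

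MYC is a basic helix-loop-helix leucine zipper factor that binds DNA as a dimer with MAX, at sites called E-boxes, and promotes transcription of genes for growth, ribosome production and metabolism. MAX also pairs with MXD1, MXD3, MXD4, MXI1 and MNT, which recruit corepressors to the same kind of site and so antagonise MYC, and with MGA, which joins a Polycomb-type repressor complex, PRC1.6. MLX is a relative of MAX that pairs with MLXIP (MondoA), a factor that responds to glucose-derived metabolites, and with MNT and some MXD proteins. MYC RNA and protein turn over quickly in most cells.

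The E-box CACGTG is the site that the MYC, MXD and MLX dimers share, and the members whose own promoters carry it are shown here. RefSeq promoter windows (GRCh38.p14, 250 bases before to 50 after a transcription start) covered 9 of the 10 members (not MYC), in 14 windows. CACGTG, a palindrome that reads the same on both strands, was found in the windows of 3 members. Across all 35116 windows of the table, 7.26% held it. The 30 bases around each site are given 5′ to 3′ on the gene's strand, with the E-box in capitals.
MXD4: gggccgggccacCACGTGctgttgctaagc
MNT: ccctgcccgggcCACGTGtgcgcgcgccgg
MLX: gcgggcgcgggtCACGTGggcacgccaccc
The MXD4 site begins 238 bases before the start, at chr4:2262330-2262359 on the minus strand. The MNT site begins 193 bases before the start, at chr17:2401236-2401265 on the minus strand. The MLX site begins 50 bases before the start, at chr17:42567038-42567067 on the plus strand. All 3 stretches lie upstream of the annotated genes. The palindromic element of the glucocorticoid receptor (AGAACA, 3 bases of any kind, then TGTTCT, which reads the same on both strands) was in no member's window and in 0.00285% of all windows, which says only that these letters are not in these windows.

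Total counts per library ran from 5768312 to 9606938, of which mitochondrial genes took 39.8% to 58.0%. The members' counts ran from 43 reads for MAX to 1437 for MYC in a library, so MAX had the widest counting error. In raw counts adjusted only for library totals, mitochondrial genes included, the 2 libraries of each group differed by more than sampling noise. By that measure the spread was widest in the pair given GSK591 with Dex (chi-square per degree of freedom 15.4, against 2.15 in the untreated pair). Replicate 2 of that pair had the highest mitochondrial share, 58.0%, and the lowest scaling factor, 0.810. The chi-square includes such shifts in mitochondrial share, so it is not the spread of the scaled values that were tested. The epithelial keratins KRT8 (259 to 353 CPM) and KRT7 (381 to 602 CPM) and the A549-typical aldo-keto reductase AKR1C1 (202 to 395 CPM) were high in every library, while the epithelial marker EPCAM was low at 1.30 to 4.09 CPM. CDKN2A had 0 or 1 read and CDKN2B 0 to 2 reads per library, 2 genes known to be deleted in this line, and the blood markers PTPRC and HBB had 0 or 1 and CD3E 0. Of 5 glucocorticoid target genes tested, 5 of 5 were higher with Dex beside either inhibitor, including PER1 by 1.89 ± 0.13 (SE) on the log2 scale beside GSK591 and 1.91 ± 0.12 beside MS023. CPM values here are taken on library sizes scaled by the TMM method, and a gene was called changed at a Benjamini-Hochberg adjusted p under 0.05 in edgeR's quasi-likelihood test over all 21910 genes.

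In untreated cells MYC stood well above every other member once counts were divided by exon length. Per kilobase of exon, MYC (ENSG00000136997.17, chr8:127735434-127741434, plus strand, GENCODE 29 on GRCh38) had 45.5 ± 0.24 CPM (SD, n = 2, as for each member that follows). The antagonists MXD3 and MNT and the MAX relative MLX came next. MXD3 (ENSG00000213347.10, chr5:177301461-177312757, minus strand) had 14.4 ± 0.75 CPM per kilobase. MLX (ENSG00000108788.11, chr17:42567068-42573239, plus strand) had 12.3 ± 1.3, and MNT (ENSG00000070444.14, chr17:2384060-2401118, minus strand) had 11.6 ± 0.64, with overlapping libraries for these 2. MLXIP (ENSG00000175727.13, chr12:122078722-122147347, plus strand), the partner of MLX, had 5.25 ± 0.47 CPM per kilobase and stood alone between the upper and the lower members.

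The 5 remaining members were all near 2 CPM per kilobase or below. MXI1 (ENSG00000119950.20, chr10:110207605-110287365, plus strand) had 2.16 ± 0.24 CPM per kilobase. MXD1 (ENSG00000059728.10, chr2:69897688-69942945, plus strand) had 2.10 ± 0.29, and MXD4 (ENSG00000123933.16, chr4:2247432-2262294, minus strand) had 2.09 ± 0.15. These 3 antagonists overlapped and have no order at this depth. MAX (ENSG00000125952.18, chr14:65006174-65102695, minus strand) had 1.54 ± 0.15 CPM per kilobase and MGA (ENSG00000174197.16, chr15:41621224-41773081, plus strand) had 1.42 ± 0.0081, and their libraries met at 1.43. MAX, the obligate partner of MYC, was therefore transcribed at a much lower level per exon base than MYC in this assay.

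**Figure D1:**
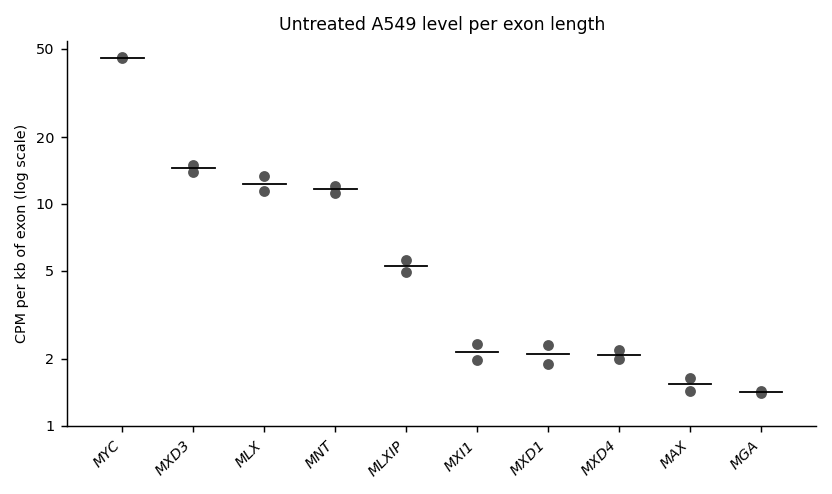
Untreated level of each network gene in CPM per kilobase of merged exon (log axis); points are the 2 libraries and lines their mean. MYC sits at about 45.5, MXD3, MLX and MNT between 11.6 and 14.4 as means, and MAX and MGA lowest.

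This order depends on the length that is used. Over 13901 protein-coding genes with several exons, counts followed exon length with a log-log slope of 0.95 ± 0.019 (SE) at equal gene span. For genes of equal exon length the slope on gene span was -0.38 ± 0.01. Exon length was therefore used, although PRO-seq signal lies along the whole gene. Per kilobase of gene span MYC was again the highest member and MLX ranked 2, but MAX ranked 10 and MXI1 9, both being long genes. Exons shared with other genes make some levels uncertain, since the strand setting of the counting is not given in the sources used here. They make up 40.4% of the exon bases of MXD3 (with RAB24 and PRELID1), 18.1% of MLX (with PSMC3IP) and 12.2% of MNT (with AC006435.1, too low to be tested). The share was 4.4% or less in MAX, MXD1, MXD4, MXI1 and MGA and 0 in MYC and MLXIP.

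**Figure D2:**
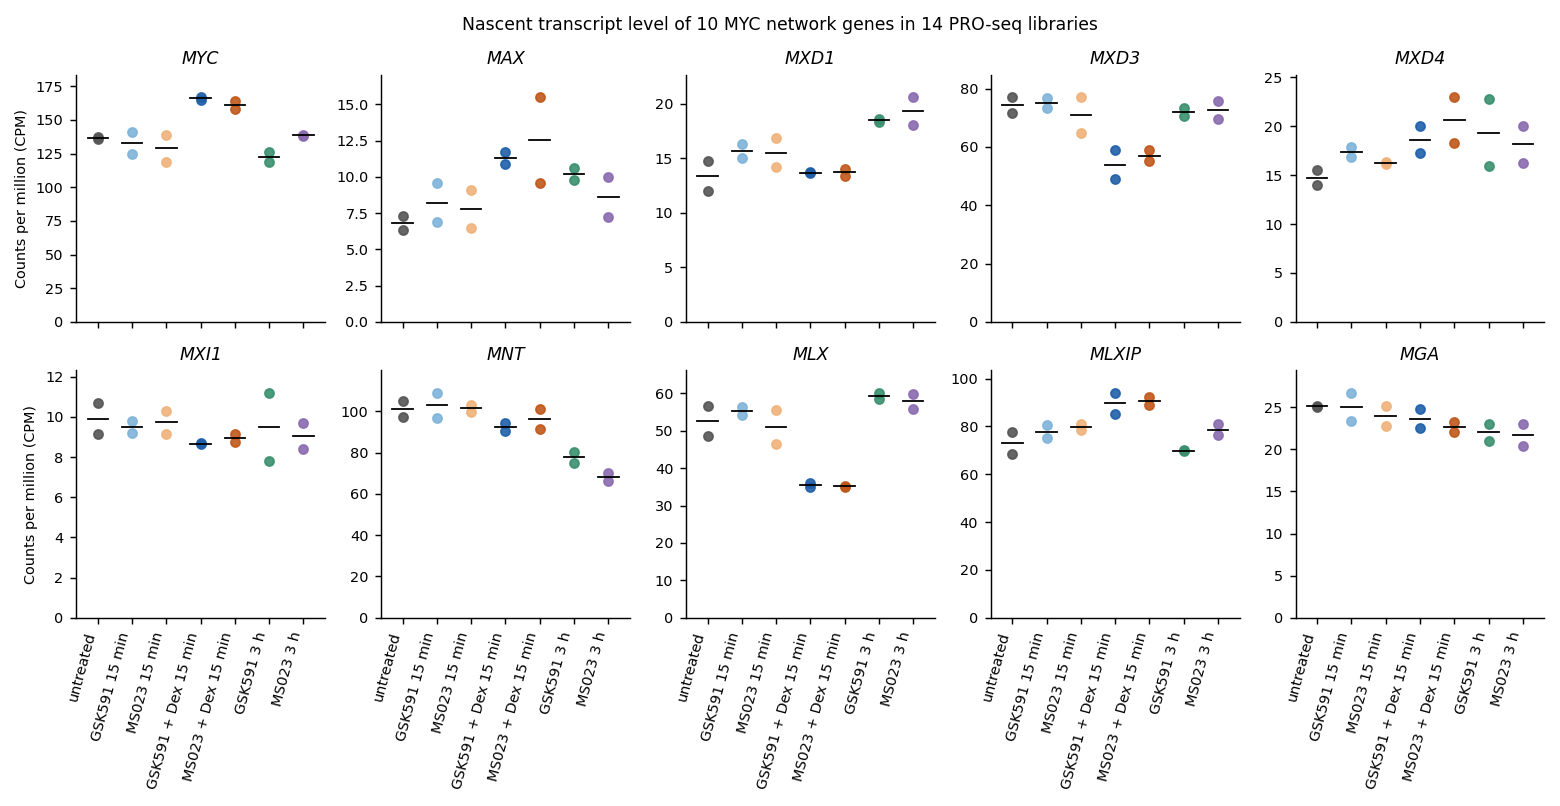
CPM of the 10 network genes in the 14 libraries, one panel per gene with its own axis from 0; points are libraries and short lines the mean of the 2 libraries of a group. MYC is highest and MLX and MXD3 lowest in the 4 libraries given Dex, and MNT is lowest in the 4 libraries at 3 h.

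At 15 min, no member was called with either inhibitor alone. With GSK591 for 15 min, 0 of 10 members were called and 0 had an unadjusted p under 0.05, in a comparison in which edgeR called 0.306% of all genes. With MS023 for 15 min, 0 of 10 were called and 0 had an unadjusted p under 0.05, against 0.183% of all genes called. DESeq2's Wald test called 0 members in both. MYC was at 137 and 136 CPM in the untreated libraries, 125 and 141 CPM with GSK591 and 139 and 119 CPM with MS023, so the inhibitor libraries lay on both sides of the untreated ones. The members' median log2 fold change was 0.05 with GSK591 and -0.01 with MS023, beside 0.02 and -0.00 over all genes. Some of the wider values were those of MXD1, at 0.23 with GSK591 and 0.20 with MS023, and of MAX, at 0.27 and 0.21, and none of these passed the test.

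Dex given with either inhibitor was followed within 15 min by higher MYC transcription and lower MXD3 and MLX transcription. Beside GSK591, edgeR called 3 of 10 members, 1 higher and 2 lower, where 3.70% of all genes were called (1.43% higher and 2.27% lower). Beside MS023 it called 4 of 10, 2 higher with MAX added and 2 lower, where 8.97% of all genes were called (5.90% higher and 3.07% lower). Among the 13518 genes averaging 5 CPM or more, as all members do, the called shares were 5.42% and 13.1%. The members' median log2 fold change was -0.11 beside GSK591 and -0.08 beside MS023, beside -0.00 and -0.02 over all genes, so the called genes moved in both directions. The same inhibitor without Dex was the reference in each case, so these comparisons share no library. In bulk cells, a change in how many cells transcribe a gene and a change in the activity per cell cannot be told apart.

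MYC stood at 125 and 141 CPM with GSK591 alone and at 165 and 167 CPM once Dex was added. With MS023 alone it stood at 139 and 119 CPM, and with MS023 and Dex at 158 and 164 CPM. All 4 libraries with Dex lay above all 10 libraries without it, whose highest value was 141 CPM. On the log2 scale MYC was higher by 0.33 ± 0.10 (SE, edgeR adjusted p = 0.046) beside GSK591 and 0.31 ± 0.10 (edgeR adjusted p = 0.031) beside MS023. These rises were small and near the threshold. Beside GSK591 the call was lost when any 1 of the 4 libraries was left out, with fold changes of 0.24 to 0.41 and edgeR adjusted p of 0.075 to 0.42. Beside MS023 it was lost without MS023 15 min replicate 2 (0.22, edgeR adjusted p = 0.34) and without MS023 + Dex replicate 1 (0.35, 0.083) or replicate 2 (0.29, 0.2).

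The size of the MYC change also depends on the scaling. Scaling by total library size alone moved the median of all genes to -0.21 beside GSK591 and -0.19 beside MS023, and MYC to 0.12 (edgeR adjusted p = 0.64) and 0.14 (edgeR adjusted p = 0.56). Relative to those medians MYC stood 0.33 higher in both. With that scaling MXD3 and MLX were the members still called in both comparisons, and all-gene calls became 98 higher and 1374 lower beside GSK591 and 533 higher and 1317 lower beside MS023. Against untreated cells, MYC was 0.28 higher with GSK591 and Dex and 0.24 higher with MS023 and Dex on the log2 scale, and neither passed the test, except with MS023 and Dex when only the compared groups were fitted (0.23, edgeR adjusted p = 0.044). With no count filter the MYC call was lost beside both inhibitors (0.32, edgeR adjusted p = 0.072, and 0.28, 0.098), and with only the compared groups fitted it was lost beside GSK591 (0.34, 0.15).

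MAX, a partner of MYC, MGA, MNT and the MXD proteins, was at 9.08 and 6.45 CPM with MS023 and at 15.5 and 9.59 CPM with MS023 and Dex. The groups did not overlap, but replicate 1 of the Dex pair was much higher than replicate 2. On the log2 scale MAX was higher by 0.66 ± 0.21 (SE, edgeR adjusted p = 0.043). Without MS023 + Dex replicate 1 it fell to 0.28 (edgeR adjusted p = 0.66), without MS023 15 min replicate 2 to 0.47 (0.32), and without MS023 15 min replicate 1 it was 0.96 (0.063). Beside GSK591, MAX was at 9.54 and 6.91 CPM without Dex and 11.7 and 10.9 CPM with it, a log2 difference of 0.46 that was not called (edgeR adjusted p = 0.29). DESeq2's Wald test did not call MAX beside MS023 (0.68, DESeq2 adjusted p = 0.17), and library size alone did not either (0.50, edgeR adjusted p = 0.16).

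MXD3, an antagonist that pairs with MAX and is known to be transcribed in cycling cells, fell. It was at 76.7 and 73.4 CPM with GSK591 and at 58.9 and 49.0 CPM with GSK591 and Dex. With MS023 it was at 77.0 and 64.7 CPM, and with MS023 and Dex at 55.1 and 58.8 CPM. The 4 Dex libraries lay below the other 10, the lowest of which was at 64.7 CPM. MXD3 had a log2 fold change of -0.48 ± 0.11 (SE, edgeR adjusted p = 0.0055) beside GSK591 and -0.32 ± 0.11 (edgeR adjusted p = 0.047) beside MS023. Without GSK591 + Dex replicate 2 the MXD3 value beside GSK591 was -0.34 (edgeR adjusted p = 0.21), and without GSK591 15 min replicate 1 it was -0.44 (0.088). Beside MS023 the call was lost without MS023 15 min replicate 1 (-0.18, edgeR adjusted p = 0.59) and without MS023 + Dex replicate 1 (-0.27, 0.3) or replicate 2 (-0.36, 0.14), by DESeq2's Wald test (-0.32, DESeq2 adjusted p = 0.14), and with DESeq2 size factors in edgeR (-0.32, 0.052).

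MLX, the MAX relative that carries MondoA to DNA, had the smallest adjusted p of the members in both Dex comparisons, and it fell in both. It was at 56.4 and 54.1 CPM with GSK591 and at 35.9 and 34.9 CPM with GSK591 and Dex. It was at 55.6 and 46.4 CPM with MS023 and at 34.9 and 35.3 CPM with MS023 and Dex. The 4 Dex libraries lay between 34.9 and 35.9 CPM and below the other 10, the lowest of which was at 46.4 CPM. MLX changed by -0.64 ± 0.11 on the log2 scale (SE, edgeR adjusted p = 2.9e-04) beside GSK591, and this was called under all 11 alternatives. Beside MS023 it was -0.55 ± 0.11 (edgeR adjusted p = 6.0e-04) and was lost only without MS023 15 min replicate 1 (-0.40, edgeR adjusted p = 0.11).

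Because the exons of MLX and MXD3 overlap other genes, those genes were read in the same fit. PSMC3IP, a meiotic recombination cofactor on the opposite strand from MLX, was at -0.09 (edgeR adjusted p = 0.74) beside GSK591 and -0.26 (0.1) beside MS023 on the log2 scale, not called in either. RAB24, a small GTPase gene on the strand of MXD3, was at -0.48 ± 0.15 (SE, edgeR adjusted p = 0.065) beside GSK591 and -0.15 (0.62) beside MS023. PRELID1, on the opposite strand, was at -0.08 (0.85) and -0.03 (0.94). Reads over the shared bases cannot be assigned to one gene or the other from the count table, and their part in the MXD3 and MLX values was not tested.

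**Figure D3:**
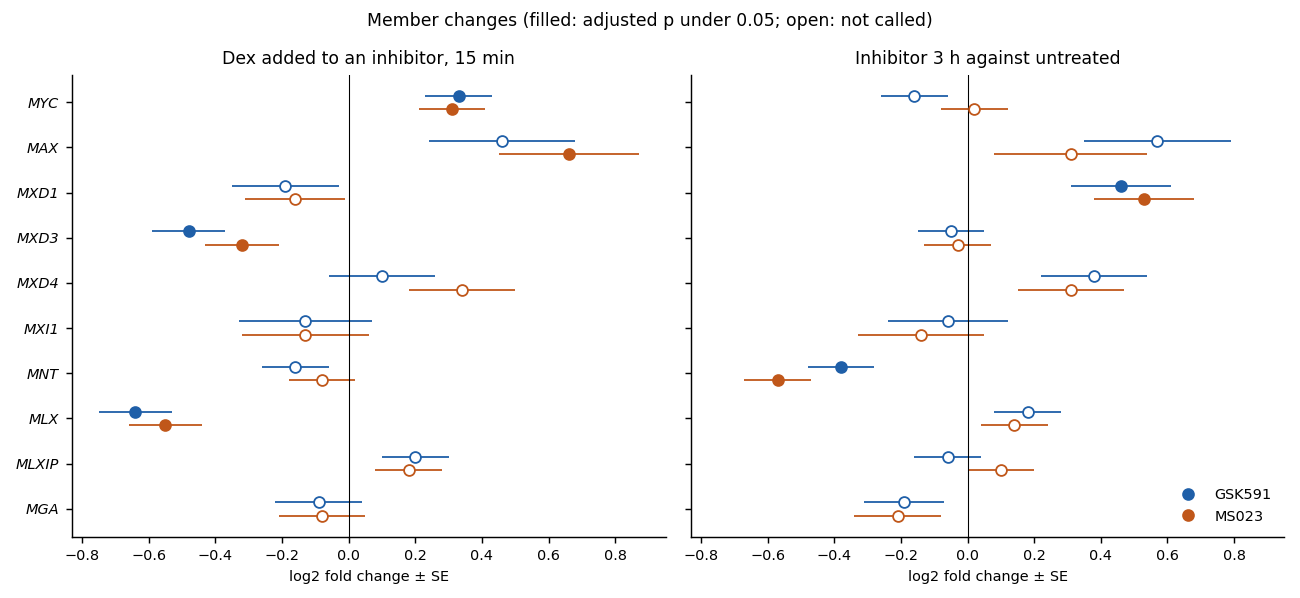
Log2 fold change of each network gene (edgeR) with its standard error in the Dex comparisons and in the 3 h comparisons; filled points passed an adjusted p under 0.05, blue is GSK591 and orange MS023. MLX and MXD3 lie below 0 and MYC above 0 in both Dex comparisons, and MNT lies below 0 and MXD1 above 0 at 3 h with both inhibitors.

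The other members did not change detectably when Dex was added. A gene's count is a single sum over its length, so a change within 15 min in part of a long gene may not show. MGA spans 151858 bases, MXI1 79761, MLXIP 68626 and MXD1 45258, against 6001 for MYC, 6172 for MLX and 11297 for MXD3. MNT and MXD4 span 17059 and 14863, and MAX, called beside MS023, spans 96522. The same limit holds for the 15 min comparisons without Dex, and the part of gene span was not tested. MNT was 0.16 lower beside GSK591 and 0.08 lower beside MS023 on the log2 scale. MGA, which carries its own T-box domain beside the helix-loop-helix domain, was at 23.4 and 26.7 CPM with GSK591 and 22.5 and 24.8 CPM with Dex added. MXI1 was at 9.18 and 9.78 CPM with GSK591 and 8.63 and 8.72 CPM with Dex added. MLXIP, MXD4 and MXD1 had log2 fold changes of 0.20, 0.10 and -0.19 beside GSK591 and 0.18, 0.34 and -0.16 beside MS023, none of them called. MXI1 and MGA were called in none of the 14 comparisons made.

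The Dex effect on the members did not differ detectably between the inhibitors. The difference of the Dex effects (GSK591 minus MS023) was 0.01 ± 0.14 (SE) on the log2 scale for MYC, -0.15 ± 0.15 for MXD3, -0.10 ± 0.16 for MLX and -0.20 ± 0.31 for MAX. Of the 10 members, edgeR and DESeq2 each called 0 in this comparison and 0 had an unadjusted edgeR p under 0.05, while edgeR called 1.15% of all genes. For MAX the standard error leaves room for a sizeable difference.

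Compared with untreated cells, MAX was higher and MXD3 and MLX lower in both groups given an inhibitor with Dex. These comparisons share the untreated libraries with each other, and the Dex libraries with the comparisons above. With GSK591 and Dex, edgeR called 3 of 10 members, where 5.85% of all genes were called (3.21% higher and 2.64% lower): MAX at 0.73 ± 0.23 (SE, edgeR adjusted p = 0.046), MXD3 at -0.46 ± 0.11 (0.0048) and MLX at -0.57 ± 0.11 (8.9e-04). With MS023 and Dex it called 5 of 10, where 7.66% of all genes were called (4.99% higher and 2.67% lower). MAX was at 0.87 ± 0.21 (edgeR adjusted p = 0.0058), MXD3 at -0.38 ± 0.10 (0.014) and MLX at -0.58 ± 0.11 (2.6e-04). MXD4 was at 0.48 ± 0.16 (edgeR adjusted p = 0.049) and MLXIP at 0.31 ± 0.10 (0.034), 2 members called in this comparison alone. Untreated MAX was at 7.31 and 6.35 CPM, below every Dex library, and untreated MLX at 56.5 and 48.5 CPM, above every Dex library.

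Of these calls, only that of MLX with MS023 and Dex was kept whichever library was left out (-0.69 to -0.47). MLX with GSK591 and Dex was lost without untreated replicate 1 (-0.46, edgeR adjusted p = 0.074). MAX with GSK591 and Dex was lost without any 1 of the 4 libraries (0.63 to 0.83, edgeR adjusted p 0.085 to 0.28), and so was MXD3 with MS023 and Dex (-0.44 to -0.33, 0.056 to 0.17) and MLXIP (0.22 to 0.40, 0.065 to 0.38). MAX with MS023 and Dex was lost without untreated replicate 2 (0.78, edgeR adjusted p = 0.098) or MS023 + Dex replicate 1 (0.49, 0.37). MXD3 with GSK591 and Dex was lost without untreated replicate 2 (-0.41, edgeR adjusted p = 0.094) or GSK591 + Dex replicate 2 (-0.33, 0.16). MXD4 was lost without untreated replicate 1 (0.55, edgeR adjusted p = 0.16), untreated replicate 2 (0.41, 0.29) or MS023 + Dex replicate 1 (0.31, 0.5). DESeq2's Wald test did not call MXD4 (DESeq2 adjusted p = 0.22), MLXIP (0.078), or MAX with GSK591 and Dex (0.17). Library size alone lost MAX with GSK591 and Dex (0.59, edgeR adjusted p = 0.15), MXD3 with MS023 and Dex (-0.39, 0.11), MXD4 (0.48, 0.13) and MLXIP (0.30, 0.22). MAX with GSK591 and Dex was also lost with only the compared groups fitted (0.72, edgeR adjusted p = 0.058). With no count filter MXD4 (0.45, edgeR adjusted p = 0.076) and MLXIP (0.28, 0.13) were lost, and MXD4 also with DESeq2 size factors (0.053) and with no mitochondrial genes (0.051).

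MYC transcription was also set against the sum of its MAX-binding antagonists, MXD1, MXD3, MXD4, MXI1 and MNT, each per kilobase of exon. This ratio was 1.47 and 1.35 in untreated cells, 1.21 and 1.44 with GSK591, and 1.40 and 1.27 with MS023 for 15 min. With Dex it was 1.95 and 2.05 beside GSK591 and 1.78 and 1.91 beside MS023. At 3 h it was 1.30 and 1.37 with GSK591 and 1.52 in replicate 1 of MS023, with a mean of 1.56 over its 2 libraries. The 4 Dex libraries were the highest of the 14, and the 2 MS023 3 h libraries came next. With MXD3 left out of the sum, because of its shared exons, the Dex libraries read 3.27, 3.15, 2.79 and 3.16 and overlapped the MS023 3 h libraries at 2.97 and 3.03. The ratio is a description of genes already tested one by one and was not tested again.

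**Figure D4:**
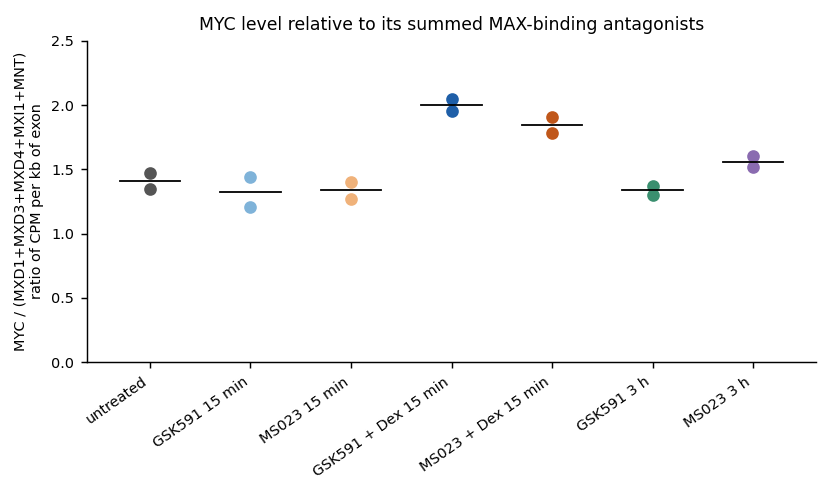
MYC CPM per exon kilobase divided by the summed CPM per exon kilobase of MXD1, MXD3, MXD4, MXI1 and MNT, in each library (points) with the group mean (line), axis from 0. The 4 Dex libraries lie between 1.78 and 2.05, and the other 10 below them, the lowest at 1.21.

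At 3 h MNT was lower and MXD1 higher than in untreated cells with either inhibitor, and MYC was not called. With GSK591, edgeR called 2 of 10 members, where 11.0% of all genes were called (7.25% higher and 3.79% lower). With MS023 it called 2 of 10, where 7.63% of all genes were called (5.40% higher and 2.23% lower). Among genes averaging 5 CPM or more the shares were 15.9% and 11.1%, so a count of 2 of 10 is near the background. These comparisons share the untreated libraries, and the untreated cells are labelled 15 min.

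MNT, the most broadly expressed MAX-binding antagonist and a partner of MLX as well, was at 97.5 and 105 CPM in untreated cells. It was at 80.4 and 75.0 CPM after 3 h of GSK591 and at 70.0 and 66.4 CPM after 3 h of MS023. All 4 libraries at 3 h lay below the other 10, the lowest of which was at 90.4 CPM. The log2 fold change against untreated cells was -0.38 ± 0.10 (SE, edgeR adjusted p = 0.0054) with GSK591 and -0.57 ± 0.10 (6.2e-05) with MS023. The MS023 value was called under all 11 alternatives. The GSK591 value was lost without untreated replicate 2 (-0.32, edgeR adjusted p = 0.14) or GSK591 3 h replicate 2 (-0.35, 0.087). Scaling by library size alone moved the median of all genes to 0.12 with GSK591 at 3 h, and MNT was then -0.25 (edgeR adjusted p = 0.25), 0.38 below that median.

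MXD1, an antagonist known to rise as cells leave proliferation, was at 12.0 and 14.7 CPM in untreated cells. It was at 18.6 and 18.3 CPM after 3 h of GSK591 and at 18.0 and 20.6 CPM after 3 h of MS023. All 4 libraries at 3 h lay above the other 10, the highest of which was at 16.8 CPM. MXD1 had a log2 fold change of 0.46 ± 0.15 (SE, edgeR adjusted p = 0.032) with GSK591 and 0.53 ± 0.15 (0.019) with MS023. Without untreated replicate 1 these were 0.33 (edgeR adjusted p = 0.33) and 0.40 (0.27). The GSK591 value was also lost without GSK591 3 h replicate 1 (0.46, edgeR adjusted p = 0.16) or replicate 2 (0.46, 0.14), and the MS023 value without MS023 3 h replicate 2 (0.44, 0.16). DESeq2's Wald test called MXD1 with neither inhibitor (DESeq2 adjusted p = 0.15 and 0.11). MXD1 was also lost with no count filter for GSK591 (0.46, edgeR adjusted p = 0.069) and with library size alone for MS023 (0.55, 0.063).

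MYC at 3 h was at 119 and 126 CPM with GSK591 and 138 and 139 CPM with MS023. Its log2 fold change against untreated cells was -0.16 with GSK591 (edgeR adjusted p = 0.33) and 0.02 with MS023 (0.94). MAX was at 9.81 and 10.6 CPM after GSK591 and 7.20 and 9.97 CPM after MS023, and the GSK591 value of 0.57 did not pass the test (edgeR adjusted p = 0.087). It passed with library size alone (0.71, edgeR adjusted p = 0.037) and with only the compared groups fitted (0.57, 0.025). MLX and MXD3, which fell with Dex, were at 58.5 and 60.1 CPM and 70.6 and 73.5 CPM after 3 h of GSK591, beside 56.5 and 48.5 CPM and 71.6 and 77.1 CPM untreated.

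The same inhibitor at 15 min is the reference that shares the inhibitor and differs in time. Against it, edgeR called 1 of 10 members with GSK591, where 6.41% of all genes were called (2.77% lower), and 1 of 10 with MS023, where 12.0% were called (4.40% lower). In both the member was MNT, lower at 3 h. It was at 109 and 96.8 CPM at 15 min of GSK591, and the log2 fold change to 3 h was -0.41 ± 0.10 (SE, edgeR adjusted p = 0.0066). It was at 99.9 and 103 CPM at 15 min of MS023, and the change was -0.57 ± 0.10 (edgeR adjusted p = 4.9e-05). The MS023 value for MNT was called under all 11 alternatives. The GSK591 value was lost without GSK591 15 min replicate 1 (-0.31, edgeR adjusted p = 0.15) or GSK591 3 h replicate 2 (-0.36, 0.12), and with library size alone (-0.34, 0.16). MXD1 was 0.24 and 0.32 higher at 3 h than at 15 min on the log2 scale and was called with neither inhibitor.

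No member differed detectably between the inhibitors. At 15 min, edgeR called 0 of 10 members between GSK591 and MS023, 0 had an unadjusted p under 0.05, and 1.09% of all genes were called. At 3 h it called 0 of 10, 0 had an unadjusted p under 0.05, and 0% of all genes were called. DESeq2 also called 0 members at both times. At 3 h MAX had the widest gap (GSK591 minus MS023, 0.27 ± 0.22 SE on the log2 scale), with overlapping libraries. The next widest gaps were those of MNT (0.19 ± 0.10), MYC (-0.18 ± 0.10) and MLXIP (-0.17 ± 0.10), none of them called. The difference between the inhibitors in the change from 15 min to 3 h was -0.21 ± 0.14 (SE) for MYC and 0.17 ± 0.14 for MNT, and 0 of 10 members were called, 0 had an unadjusted p under 0.05 and 0.561% of all genes were called.

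Among the family members outside the network list, MYCL, a MYC paralogue, was low and rose at 3 h. It was at 3.44 and 5.58 CPM in untreated cells, 8.76 and 10.0 CPM after 3 h of GSK591 and 7.31 and 8.45 CPM after 3 h of MS023. The libraries at 3 h lay above all untreated ones. MYCL had a log2 fold change of 1.05 ± 0.23 (SE, edgeR adjusted p = 0.0012) with GSK591 and 0.80 ± 0.24 (0.028) with MS023. Against 15 min of the same inhibitor it was 1.03 ± 0.23 (edgeR adjusted p = 0.0036) with GSK591 and 0.67 ± 0.24 (0.06, not called) with MS023. MLXIPL, the paralogue of MLXIP known as ChREBP, was at 7.34 to 8.60 CPM in untreated cells and was called in none of the comparisons. MYCN had too few counts to be tested.

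Of the transcripts next to MYC on its chromosome, 3 of the 6 in the table had enough counts. PVT1, a long noncoding RNA gene downstream of MYC, was at 51.0 and 48.9 CPM with GSK591 and 53.1 and 55.5 CPM with Dex added, a log2 difference of 0.12. Beside MS023 the difference was 0.11, and PVT1 was called in no comparison. TMEM75 was the one neighbour called with Dex, beside GSK591, where 3.70% of all genes were called. It was at 13.4 and 15.6 CPM without and 21.1 and 22.3 CPM with Dex (0.58 ± 0.15 SE on the log2 scale, edgeR adjusted p = 0.015). Beside MS023 TMEM75 was at 18.2 and 16.4 CPM without and 20.8 and 20.7 CPM with Dex. It was not called there, where 8.97% of all genes were. The TMEM75 call was lost with library size alone, which called 0 of the 3 neighbours with Dex beside either inhibitor. Between 3 h and 15 min of MS023 that scaling called 1 of the 3 lower, where it called 1391 of 21910 genes lower.

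The share of MYC and MAX cofactors called with Dex was near the background. Of 28 genes for histone acetyltransferase complexes, chromatin remodellers, ubiquitin ligases and other regulators, Dex beside GSK591 raised 0 and lowered 1, where 3.70% of all genes were called, with a median log2 fold change of -0.07 beside -0.00 over all genes. The one was the acetyltransferase KAT2A (-0.38 ± 0.11 SE, edgeR adjusted p = 0.043). Beside MS023, 2 rose and 0 fell, where 8.97% of all genes were called, with a median of 0.03. They were TRRAP, the scaffold that MYC binds in acetyltransferase complexes (0.37 ± 0.10, edgeR adjusted p = 0.0092), and BPTF, a subunit of the NURF remodeller (0.53 ± 0.11, 0.0013). At 3 h against untreated cells (medians -0.05 and -0.06), EP400, a subunit of the TIP60 complex, was the one gene called with GSK591 (-0.34 ± 0.10, edgeR adjusted p = 0.025), and 0 were called with MS023, where 11.0% and 7.63% of all genes were called. Against 15 min, 0 rose and 2 fell with GSK591, and 1 rose and 1 fell with MS023, where 6.41% and 12.0% of all genes were called. EP400 was again lower with GSK591 (-0.46 ± 0.10, edgeR adjusted p = 0.0045), and PIM1, a kinase that cooperates with MYC, was higher with MS023 (0.45 ± 0.11, 0.0052). ZBTB17, which encodes the MYC partner MIZ1, was lower with both inhibitors (-0.51 ± 0.13 with GSK591, edgeR adjusted p = 0.011, and -0.57 ± 0.13 with MS023, 0.0022). By library size alone 0 cofactors were called with Dex beside MS023, at 3 h of GSK591 against untreated cells, or between 3 h and 15 min of GSK591. Between 3 h and 15 min of MS023 that scaling called 0 higher and 4 lower, so the PIM1 call was lost. The all-gene median there was -0.16.

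Among the 12 partners of MGA in PRC1.6, 1 was called at 3 h against untreated cells with each inhibitor. Over all genes 11.0% were called with GSK591 and 7.63% with MS023, so this count is near the background. The list medians were -0.01 and 0.01, beside -0.01 over all genes in both. The gene called was TFDP1, the dimer partner of E2F factors. It was at 8.17 and 9.63 CPM in untreated cells, 17.2 and 20.3 CPM after 3 h of GSK591 and 12.9 and 15.9 CPM after 3 h of MS023. The log2 fold change was 1.07 ± 0.18 (SE, edgeR adjusted p = 2.8e-05) with GSK591 and 0.68 ± 0.19 (0.015) with MS023. Against 15 min it was 0.70 ± 0.17 (edgeR adjusted p = 0.008) and 0.78 ± 0.19 (0.0048). In that comparison 1 of 12 partners was called with GSK591, where 6.41% of all genes were called. With MS023, 3 of 12 were called, 2 higher and 1 lower, where 12.0% of all genes were called. When Dex was added, 0 were called beside GSK591 and 1 rose beside MS023, where 3.70% and 8.97% of all genes were called. By library size alone, 0 rose and 1 fell with Dex beside GSK591, and 0 were called beside MS023. Between 3 h and 15 min of MS023 that scaling called 1 higher and 1 lower. The other 11 partners were not called against untreated cells, and MGA itself was at 21.0 and 23.0 CPM and 20.4 and 23.0 CPM, beside 25.2 and 25.0 CPM untreated.

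Genes that MYC is known to activate moved both ways when Dex was added. Of 59 tested, for ribosome production, nucleotide and polyamine synthesis, translation and the cell cycle, 5 were called beside GSK591, where 3.70% of all genes were called. Of these 2 rose and 3 fell, with a median log2 fold change of -0.09, beside -0.00 over all genes. Beside MS023, where 8.97% of all genes were called, 2 rose and 3 fell with a median of -0.08, beside -0.02. Scaling by library size alone gave 0 higher and 15 lower beside GSK591 (median -0.30, beside -0.21 over all genes) and 1 higher and 6 lower beside MS023 (median -0.26, beside -0.19). The rise with the smallest p was that of ODC1, the rate-limiting enzyme of polyamine synthesis. It was at 29.3 and 24.1 CPM with GSK591 and 42.6 and 35.7 CPM with Dex added, and at 18.2 and 25.2 CPM with MS023 and 45.9 and 45.4 CPM with Dex added. The log2 fold changes of ODC1 were 0.55 ± 0.14 (SE, edgeR adjusted p = 0.013) and 1.10 ± 0.14 (2.0e-07). SRM, the next enzyme of that pathway, fell beside GSK591 (-0.61 ± 0.16, edgeR adjusted p = 0.018). The mitotic kinase gene PLK1 fell beside both (-0.52 ± 0.11, edgeR adjusted p = 0.0033, and -0.40 ± 0.11, 0.012). Beside MS023 the log2 fold changes of the list ran from -1.19 to 1.10. PHB, also in the list, was at 10.5 and 11.3 CPM with MS023 and 4.32 and 5.14 CPM with Dex added. Beside GSK591 PHB was at 10.7 and 11.9 CPM without and 4.53 and 10.4 CPM with Dex. IMP4 was at 46.4 and 40.7 CPM with MS023 and 32.4 and 34.8 CPM with Dex added.

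At 3 h against untreated cells, 3 of the 59 activated targets rose and 8 fell with GSK591, and 0 rose and 7 fell with MS023, with medians of -0.10 and -0.09 beside -0.01 over all genes in both. Over all genes 7.25% were called higher and 3.79% lower with GSK591, and 5.40% higher and 2.23% lower with MS023. The falls rest on the scaling: by library size alone 3 rose and 0 fell with GSK591 (median 0.03, beside 0.12 over all genes), and 0 rose and 0 fell with MS023 (median -0.07, beside 0.01). The list median stayed below that of all genes. WDR74, a ribosome assembly factor, fell with both (-0.47 ± 0.10 SE, edgeR adjusted p = 0.0011, and -0.41 ± 0.10, 0.0066). It was at 57.5 and 61.1 CPM in untreated cells, 41.7 and 44.1 CPM after GSK591 and 42.3 and 47.5 CPM after MS023. TCOF1, which serves ribosomal RNA transcription, was at -0.44 ± 0.10 with GSK591 (edgeR adjusted p = 0.0032) and -0.34 ± 0.10 with MS023 (0.034). The replication helicase gene MCM5 was at -0.42 ± 0.10 (edgeR adjusted p = 0.0048) and -0.38 ± 0.10 (0.017), in the same order. The translation helicase gene EIF4A1 was at -0.36 ± 0.10 (0.0089 by edgeR) and -0.38 ± 0.10 (0.0073), and the repair gene UNG at -0.42 ± 0.12 (0.016) and -0.45 ± 0.12 (0.014). SLC19A1, the folate carrier gene, was called with MS023 (-0.43 ± 0.12, edgeR adjusted p = 0.014) and not with GSK591 (-0.32 ± 0.12, 0.067). HSPE1, a mitochondrial chaperonin gene, was called higher with GSK591 (0.56 ± 0.13, edgeR adjusted p = 0.0018) and not with MS023 (0.24 ± 0.13, 0.31).

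Of 7 tested genes that MYC is known to repress, 1 rose and 0 fell with Dex beside GSK591 (median 0.28, beside -0.00 over all genes, of which 3.70% were called). Beside MS023, 3 rose and 1 fell (median 0.16, beside -0.02 over all genes, of which 8.97% were called). At 3 h against untreated cells, 1 rose and 0 fell with GSK591 (median 0.17), and 2 rose and 0 fell with MS023 (median 0.24), beside a median of -0.01 over all genes in both and called shares of 11.0% and 7.63%. CDKN1A, the cyclin-dependent kinase inhibitor p21, was at 16.2 and 18.6 CPM with GSK591 and 32.8 and 22.0 CPM with Dex added (0.66 ± 0.16 SE, edgeR adjusted p = 0.0088). Beside MS023 it was at 21.1 and 15.9 CPM without and 28.7 and 31.9 CPM with Dex (0.69 ± 0.15, edgeR adjusted p = 0.0015). FTH1, the ferritin heavy chain, rose with Dex beside MS023 (0.86 ± 0.11, edgeR adjusted p = 1.9e-07) and at 3 h with GSK591 (0.63 ± 0.10, 2.6e-05) and MS023 (0.57 ± 0.10, 1.5e-04). The MS023 15 min reference of FTH1 was low, at 69.0 and 73.1 CPM, against 98.2 and 91.1 CPM untreated. With MS023 and Dex FTH1 was at 113 and 145 CPM. Of the 7 genes, 1 was called between the inhibitors at 15 min and 1 in the difference of Dex effects, where 1.09% and 1.15% of all genes were called. CDKN1B was the one that fell, with Dex beside MS023 (-0.53 ± 0.13, edgeR adjusted p = 0.0052). CDKN1A is also known as a target of p53, and FTH1 as a gene that responds to iron and oxidative stress. Scaling by library size alone gave 0 higher and 1 lower with Dex beside GSK591 (median 0.08, beside -0.21 over all genes). Beside MS023 it gave 1 higher and 1 lower (median -0.02, beside -0.19 over all genes). The sign of the latter median turned, while the list stood 0.29 and 0.17 above the all-gene medians. At 3 h against untreated cells that scaling gave 2 higher and 0 lower with each inhibitor. The medians there were 0.30 with GSK591 and 0.26 with MS023, beside 0.12 and 0.01 over all genes.

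**Figure D5:**
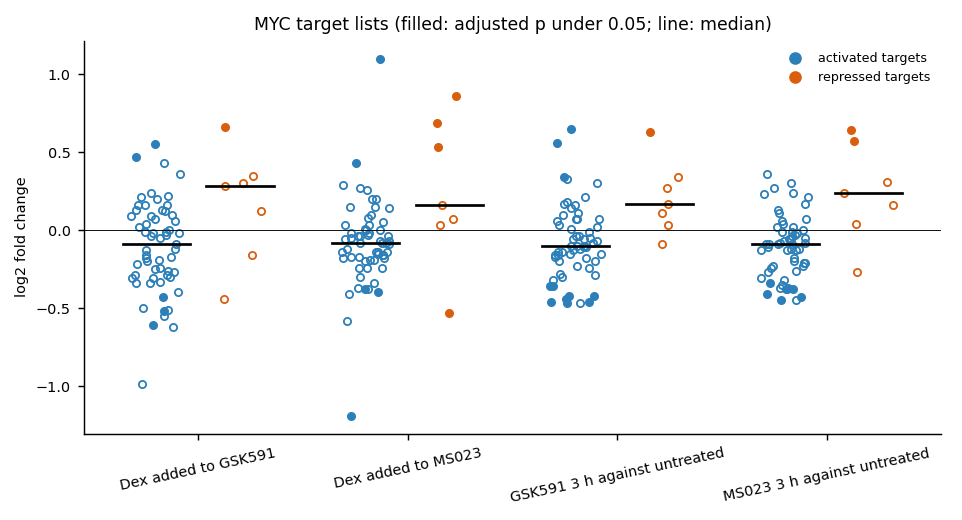
Log2 fold changes of single genes (points) in the lists of MYC activated and MYC repressed targets, with the list median (line), in the Dex and the 3 h comparisons; filled points passed an edgeR adjusted p under 0.05. The median of the activated list lies between -0.10 and -0.08 and that of the repressed list between 0.16 and 0.28.

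ARRDC4, a glucose-responsive target of MLXIP and MLX, was at 0.457 to 2.91 CPM over all libraries. It was called only between 3 h and 15 min of MS023 (1.77 ± 0.52 SE on the log2 scale, edgeR adjusted p = 0.018), from 0.757 and 0.600 CPM to 1.96 and 2.91 CPM. That 15 min reference was low, beside 1.94 and 1.64 CPM in untreated cells. Against untreated cells, ARRDC4 at 3 h of MS023 had a log2 fold change of 0.42 and was not called. When Dex was added and MLX fell, ARRDC4 was at 1.41 and 0.715 CPM without and 2.40 and 2.30 CPM with Dex beside GSK591 and was not called. TXNIP, the other such target listed, had too few counts to be tested.

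The genes most like each member in pattern were found by Pearson's r of log2 CPM over the 14 libraries among 9257 genes averaging 10 CPM or more. These are descriptions over libraries that share their treatments, and r is high for any gene that follows the Dex or the 3 h groups. MYC was most like MCC (0.934), GLRX (0.912), WWTR1 (0.912), CFLAR (0.908) and PLEKHG2 (0.908). Among the genes most like MLX were TMCO6 (0.974), ENO3 (0.97), SLC12A5 (0.965) and ENTREP3 (0.961). MXD3 was most like PCGF1 (0.945), SERTAD3 (0.937), LSR (0.935), ARMC7 (0.934) and KCTD11 (0.933). MNT was most like COL7A1 (0.969), ANKMY1 (0.963), PSD (0.956), NPIPB3 (0.935) and PHACTR1 (0.933). MAX was most like UBAP1L (0.913) and ATL2 (0.861).

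The authors' deposited tables compare each treatment with the untreated cells by DESeq2 and gave 60 values for the 10 members. Of these 60 in the authors' deposited tables, 2 had an adjusted p under 0.05 and 2 had no adjusted p. The 2 past the threshold were MNT at 3 h, with log2 fold changes in the authors' deposited tables of -0.43 ± 0.14 (SE, adjusted p = 0.042) with GSK591 and -0.62 ± 0.14 (0.0015) with MS023. For MLX with Dex the authors' deposited tables give -0.46 (adjusted p = 0.23) with GSK591 and -0.47 (0.16) with MS023, the same direction as in edgeR's test but not past the threshold.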

How the data were processed

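PRO-seq was performed on 14 A549 libraries. The authors deposited raw read counts per gene, made with featureCounts 2.0.1 on hg38 per the submitters' processing notes. The aligner, counting feature, strand setting and duplicate handling are not given in the sources used here. The authors' deposited DESeq2 tables hold a mean signal, log2 fold changes with standard errors, a test score and p-values per gene, per the file headers. Identifiers matched GENCODE 29.

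The counts were tested with edgeR 4.0.16 (R 4.3.3): its expression filter, TMM scaling, all 14 libraries in one fit with 1 coefficient per group (7 residual degrees of freedom, common biological coefficient of variation 0.0728), the quasi-likelihood test, and Benjamini-Hochberg adjustment over 21910 genes in each of 14 contrasts. SE is the log2 fold change divided by the square root of F. The fit was tested on simulated data for 3 h of GSK591 against untreated. It recovered 72.5% of 200 genes changed by 1 on the log2 scale, with 11 false calls. Smaller changes, such as those of the members, were not simulated. Replicate numbers did not pair the samples and no block was used.

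The members and lists were chosen with earlier results of these data known. All members were named, with up to 4 called genes of smallest p per list and comparison and 5 genes most alike in pattern to MYC and to members called in at least 3 contrasts. One gene alike in pattern to a member is not reported here. The difference of time effects was added after seeing the data. No spike-in was used, so changes are relative to the bulk of genes. Alternatives were DESeq2 1.42.0 (size factors, Wald test), library size alone, no mitochondrial genes, no count filter, only the groups compared, a replicate block, and each library left out.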

Additional observations from a re-analysis of the deposited data

How the results depend on the processing

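Of 1603 values of single members under the alternatives, 1526 kept their direction and side of the threshold or were uncalled in both, 73 lost the call, 4 gained it (MAX at 3 h of GSK591 under 2 alternatives, MYC with MS023 and Dex, and MXD4 at 3 h of GSK591 without GSK591 3 h replicate 1, 0.63, edgeR adjusted p = 0.022) and 0 reversed; 146 of the 1368 uncalled in both had another sign. Of the 21 calls, 4 were kept under every alternative: MLX with Dex added to GSK591, MLX with MS023 and Dex against untreated, and MNT at 3 h of MS023 against untreated and against 15 min. The number of members called with MS023 and Dex against untreated was 5, and became 2 with library size alone, 3 with no count filter and 3 with DESeq2's test. At 3 h against untreated, 2 members became 1 with no count filter or DESeq2's test for GSK591, and 1 with library size alone or DESeq2's test for MS023. For Dex added to MS023, 4 members became 2 with library size alone or DESeq2's test, and for 3 h against 15 min of GSK591, 1 became 0 with library size alone. The cause was not tested. With 1 library left out, the members called were 1 to 2 for GSK591 and Dex against untreated, 1 to 3 for MS023 and Dex against untreated, 0 to 2 and 1 to 2 for 3 h of GSK591 and of MS023 against untreated, 1 to 2 for Dex added to GSK591 and to MS023, and 0 to 1 and 1 for 3 h against 15 min; a group then rests on a lone library that is assumed to vary like the others.

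Same-numbered libraries of different groups did not deviate together (correlations over 21 pairs of groups from -0.0703 to 0.1, median 0.0201), and with only 2 numbers no pairing was taken. A fit with the replicate number as a block changed 1 member call: MXD4 with MS023 and Dex against untreated had an edgeR adjusted p of 0.051, so 4 members and not 5 were called there. Over all genes, library size alone gave 98 higher and 1374 lower calls for Dex added to GSK591, and 533 and 1317 for Dex added to MS023. DESeq2's test called 401 and 1020 genes there. With 2 libraries per group, and 43 to 133 reads for MAX, changes of the size seen for MYC lie near the limit of detection.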
